A study of Mus musculus with 9 samples.

Results

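The genes described here encode the T cell receptor complex and the cytotoxic equipment of lymphocytes in the mouse epididymis. They were chosen by name, as the rows Cd3d, Cd3e, Cd3g, Trbc2, Trac, Trdc, Cd8a, Nkg7, Gzma and Gzmb of the table of unique molecular identifiers (UMIs), and all 10 were found among its 32195 genes. The data were single-cell RNA-seq of untreated C57BL/6 mice, and the caput, corpus and cauda of the epididymis were dissociated separately at postnatal day 42 (P42) and day 56 (P56). There were 9 libraries, made from 1 pool of P42 mice and 2 pools of P56 mice, each divided into 3 segments. The P56 pools are called replicate 1 and replicate 2. At P42 each segment had a single library, so age and pool cannot be told apart, and every age comparison takes the single P42 library of a segment to be as variable as its P56 counterparts.

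A T cell recognises antigen through a receptor made of an alpha and a beta chain or of a gamma and a delta chain, and the CD3 gamma, delta and epsilon chains carry this receptor to the surface and pass on its signal. Cytotoxic T cells and natural killer (NK) cells kill targets with granules that hold granzymes, and NK cells do so without a T cell receptor. In the epididymis, lymphocytes lie mostly within and under the epithelium of the duct, where classical histology named them halo cells.

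Cd3g, Cd3d and Cd3e lie side by side on chromosome 9 of GRCm38 (44969572 to 44980431, 44981786 to 44987339 and 44998740 to 45009627). Cd3g and Cd3d are transcribed away from each other and are 1354 bases apart. Trdc and Trac, the constant segments of the delta and alpha chains, lie on chromosome 14 at 54142851 to 54148868 and at 54220521 to 54224206. Trbc2, a constant segment of the beta chain, lies on chromosome 6 at 41546730 to 41548352, and Cd8a, the alpha chain of the CD8 coreceptor, is on the same chromosome at 71373427 to 71379173. Among the cytotoxic genes, Nkg7, which encodes a granule membrane protein, is on chromosome 7 at 43437073 to 43438249. Gzma is on chromosome 13 at 113093825 to 113100981 and Gzmb on chromosome 14 at 56258838 to 56262260, and both encode serine proteases of the granules. Cd3e and Trdc each overlap 2 other annotated genes, 1 of the overlapping genes of Cd3e and both of those of Trdc on the opposite strand. The strandedness of the counting is not given in the sources used here, so reads of overlapping genes may not have been told apart.

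The beta chain has 2 constant segments that are close copies of each other, and reads of the shared parts cannot be assigned to 1 of them. The coding sequences of Trbc1 and Trbc2 were identical at 498 of 521 bases (95.6%), and 14 of the 23 differences fell in bases 400 to 489. These bases are printed from the GENCODE transcripts, 5′ to 3′, because most of the coding differences fall there, and the differing bases are in capitals. Only coding bases were compared, and where the counted reads of the pair fell is not known. Trbc2 values should be read with this limit.
Trbc1: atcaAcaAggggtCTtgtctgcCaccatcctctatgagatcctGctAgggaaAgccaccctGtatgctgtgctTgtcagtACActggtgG
Trbc2: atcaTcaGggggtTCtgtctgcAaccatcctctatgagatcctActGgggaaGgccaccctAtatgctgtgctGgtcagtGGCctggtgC

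The promoters of the 3 cytotoxic members are shown because these genes were found together in lymphocytes but differed in the segments and cells where they were found. Each is the 250 bases before the RefSeq start on GRCm38.p6, read in the direction of transcription, with the core letters of a RUNX motif (TGTGGT, read on either strand) in capitals. Gzma is chr13:113100982-113101231 on the minus strand, Gzmb chr14:56262335-56262584 on the minus strand and Nkg7 chr7:43436888-43437137 on the plus strand.
Gzma: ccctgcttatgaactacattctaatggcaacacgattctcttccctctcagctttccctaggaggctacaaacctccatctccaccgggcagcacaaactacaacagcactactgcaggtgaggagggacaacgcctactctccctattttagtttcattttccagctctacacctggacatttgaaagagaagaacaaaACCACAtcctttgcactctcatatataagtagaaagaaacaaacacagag
Gzmb: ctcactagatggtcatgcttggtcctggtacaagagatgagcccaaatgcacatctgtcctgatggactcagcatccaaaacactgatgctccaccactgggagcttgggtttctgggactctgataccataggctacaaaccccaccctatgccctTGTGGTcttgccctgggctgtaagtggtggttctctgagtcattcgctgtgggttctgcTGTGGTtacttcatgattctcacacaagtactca
Nkg7: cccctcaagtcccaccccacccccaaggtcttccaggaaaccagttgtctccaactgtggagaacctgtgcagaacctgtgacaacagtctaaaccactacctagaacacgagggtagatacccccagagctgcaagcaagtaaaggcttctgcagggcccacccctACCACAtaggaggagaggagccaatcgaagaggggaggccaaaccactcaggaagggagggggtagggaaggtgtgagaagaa

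The RUNX letters were found in 3 of the 7 members with a promoter entry (Nkg7, Gzma and Gzmb) and in 14.0% of 32536 distinct mouse promoters of this length. Counted from the first base of the match, Gzmb held the letters 34 and 93 bases before the start, Gzma 50 bases and Nkg7 83 bases before it. These distances are to the RefSeq starts, which for Nkg7 and Gzmb differ from the ends of the GENCODE positions given above. The printed Nkg7 bases run past its GENCODE start at 43437073. An AP-1 motif (TGAGTCA, read on either strand, like all motifs here) was found in Gzmb alone of the 7, and in 4.45% of all promoters. The E-box CACCTG was found in Cd3g, Cd3d and Gzma and in 17.3% of all promoters, and the ETS letters AGGAAG in Nkg7, Cd3d and Cd3e and in 29.6%. No match of one motif overlapped a match of another in these members, and a match describes letters, not a bound site.

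Transcripts of the 10 genes were rare. After quality control 41050 cells were used, with 18704098 to 40763161 UMIs summed per library, and 6480 of these UMIs were from the members, which is 24.9 CPM (a counts-per-million scale over the summed UMIs). A UMI of at least 1 member was found in 2742 cells (6.68%). Nkg7 (1218 UMIs) and Trbc2 (1103 UMIs) gave the most and Cd8a, with 81, the fewest. The limits on cells left out 42.1%, 20.8% and 15.6% of the UMIs of the P42 caput, corpus and cauda, against 3.84% to 6.53% of those of the P56 libraries. The P42 cauda stood apart in composition, since 20 of its cells were principal-like and 52.7% were myoid/fibroblast-like, and the calls of members across segments and between the ages averaged over segments are also given without it. The age contrast of the cauda has no other P42 library and cannot be. Libraries shared at most 27 cell barcodes.

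Lymphocytes were taken as cells with a UMI of at least 2 of 14 lymphocyte genes, none of them a member (among them Cd2, Ms4a4b, Lck, Il2rb, Ctsw, Klrd1, Il7r, Ltb, Cd5 and Cd6). This gate held 605 cells, 1.47% of all. Cells with more B cell genes than lymphocyte genes were taken as B-like instead. Over all used cells, 279 carried exactly 2 of the 14 genes and 2184 carried 1. A member UMI was found in 60.9% of the former, in 16.6% of the latter and in 4.98% of cells without any of the 14 genes. Within the gate, 473 of 605 cells (78.2%) carried a member UMI, although the members had no part in drawing it. All 26 genes of the wider lymphocyte list, which includes the 14 that drew the gate, were higher in the gate than in all cells, with a summed level of 1712 to 7182 CPM per library. Macrophage markers were also found there (18 of 18 genes higher in the gate, 126 to 13745 CPM), as were sperm markers (11 of 12 genes, 33.7 to 1998 CPM), ciliated cell markers (7 of 10 genes, 16.2 to 385 CPM) and myoid/fibroblast markers (10 of 15 genes, 480 to 30469 CPM), whereas 3 of 12 B cell genes were higher and the defining Pax5 was at 0. These counts of genes pool the libraries. Library by library, the summed macrophage list was higher in the gate than in all cells in 8 of 9 libraries, the sperm list in 4, the B cell list in 6, and the ciliated and the myoid/fibroblast lists in 2 each. The gated cells thus carried lymphocyte transcripts together with transcripts of other cells, and no doublet caller was run.

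Each member was highest in the gated lymphocytes of 11 marker-gated groups of cells. The plot of levels by cell type shows these values.

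**Figure D1:**
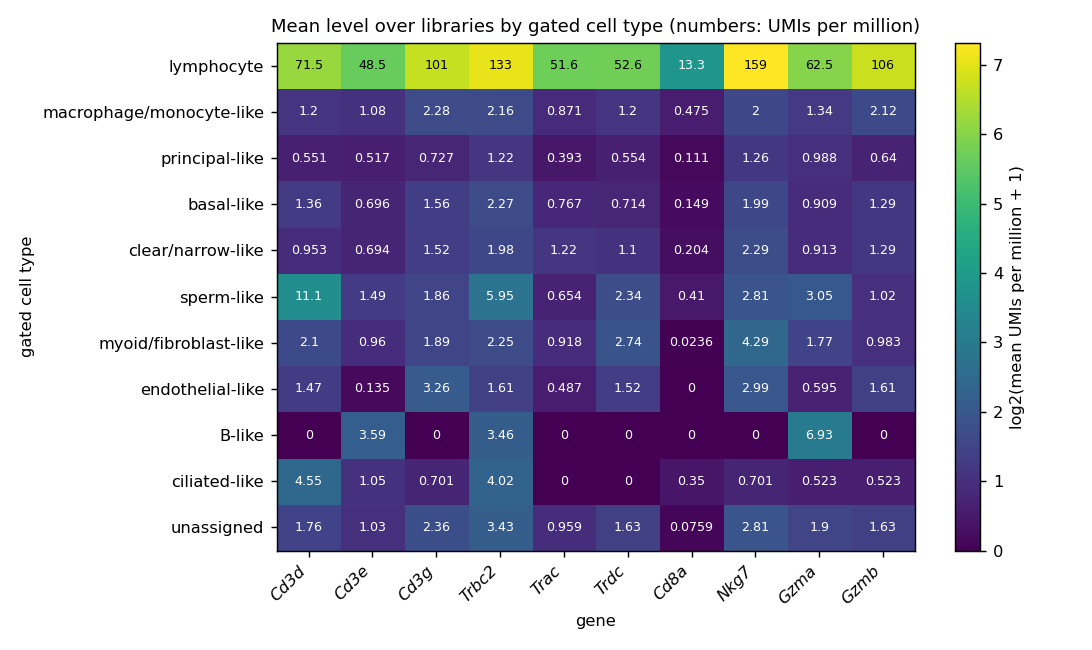
Heat map of the mean level over libraries (CPM, printed in each cell) of each member (columns) in each marker-gated cell type (rows), with the colour giving log2(mean CPM + 1). The lymphocyte gate had the highest mean for all 10 genes, from 13.3 CPM for Cd8a to 159 CPM for Nkg7, and the principal-like cells lay between 0.111 and 1.26 CPM.

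Among the CD3 chains, Cd3d was 71.5 ± 42.7 CPM, Cd3e 48.5 ± 44.4 and Cd3g 101 ± 74.0 in the gate (SD, n = 9 libraries), against 0.551, 0.517 and 0.727 CPM in principal-like cells. Trbc2 was 133 ± 79.7 CPM, Trac 51.6 ± 32.4 and Trdc 52.6 ± 37.0. The coreceptor chain Cd8a was 13.3 ± 9.7 CPM. For the cytotoxic genes the means were 159 ± 101 CPM for Nkg7, 62.5 ± 68.1 for Gzma and 106 ± 115 for Gzmb. The spread of both granzymes between libraries was thus as large as their mean. The next highest type varied from gene to gene and was mostly within a few CPM of the rest. Its mean was 11.1 CPM for Cd3d, in sperm-like cells, where a single library reached 48.6 CPM. For Gzma it was 6.93 CPM in B-like cells, with 20.8 CPM in 1 library and 0 in the other libraries that entered. The gate was the highest type in all 9 libraries for Cd3d, Cd3g, Trbc2, Trac, Trdc and Gzmb, in 8 for Cd3e, Cd8a and Nkg7 and in 7 for Gzma. Among the other types, from principal-like to endothelial-like cells, the levels overlapped between libraries and gave no firm order.

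A low share of every other cell type also carried member UMIs. Of 10593 principal-like cells, which should lack these genes and had a median of 7130 UMIs, 0.123% (Cd8a) to 0.868% (Nkg7) had a UMI of a given member, against 4.96% (Cd8a) to 39.3% (Nkg7) of gated cells, whose median was 4898 UMIs. The gate held 3271 of the 6480 member UMIs (50.5%). For Cd3d the level outside the gate was 3.82 CPM in the P42 corpus and 4.51 CPM in the P42 cauda, and 0.421 to 1.59 CPM in the other 7 libraries. Of cells outside the gate, 291 had UMIs of 2 or more members, against 365 inside. In summed cells, fewer lymphocytes and less RNA per lymphocyte cannot be told apart.

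The question of the series is how cells of the epididymis vary along its segments and between the ages. Between segments, none of the members was called when all cells were summed. The fit takes the segment difference to be alike in every pool, whereas the age change of 3 members differed between segments, as given below. The plot of the levels in all cells shows that for 8 of 10 members, all but Cd8a and Gzmb, the P42 corpus and cauda libraries lay above the other 7. The share of all genes that do the same was not counted, so this number is a description only.

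**Figure D2:**
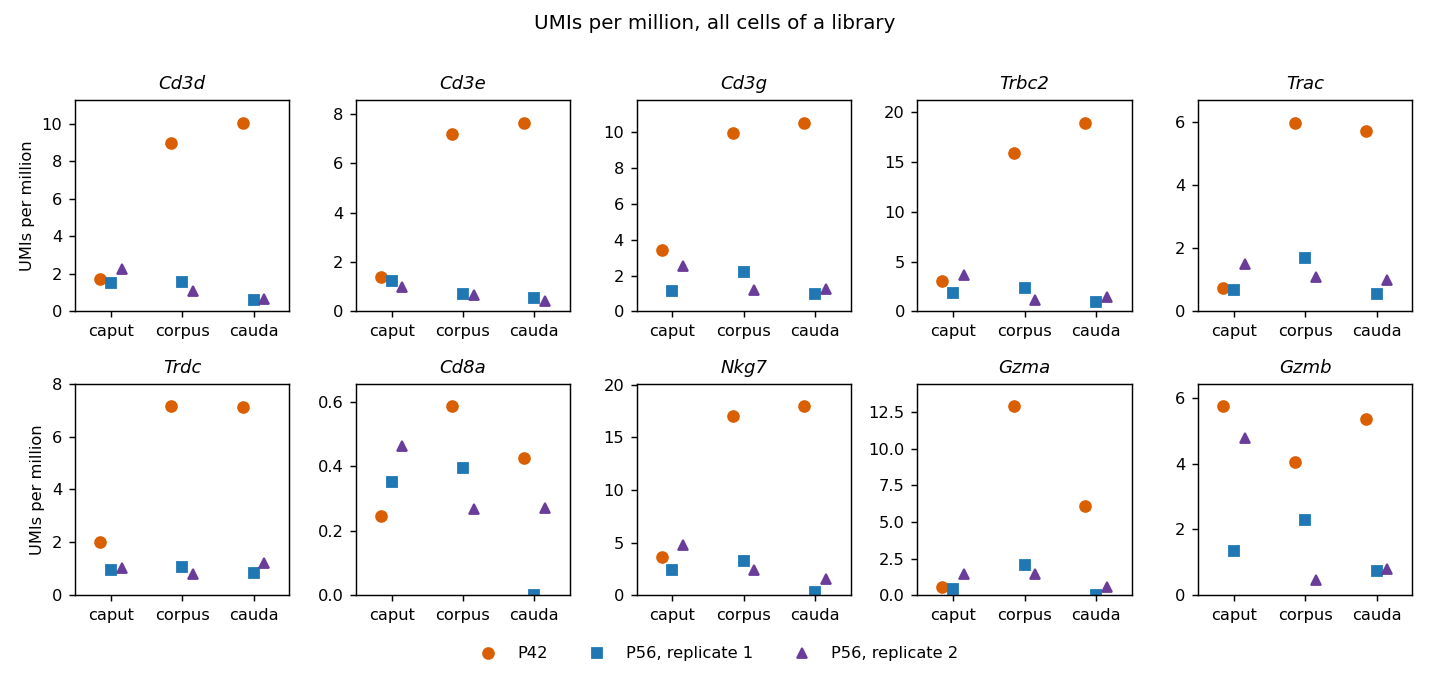
Level of each member in all cells of a library (CPM, linear axis from 0, a separate scale for each gene) by segment, with a circle for the P42 library, a square for P56 replicate 1 and a triangle for P56 replicate 2. For Cd3e, Cd3g and Trdc the lowest P42 library lay above the highest P56 library, and the P42 corpus and cauda stood clear of the rest for most genes.

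The number of members called was 0 of 10, where 24.7% of 19505 genes were called (edgeR's quasi-likelihood test with the pool as a block, where a call needed a Benjamini-Hochberg adjusted p under 0.05 together with a change of 1 or more on the log2 scale). At an unadjusted p under 0.05 there were also 0 members, and DESeq2 called 0. The median range between segments was 0.84 on the log2 scale for the members and 0.85 over all genes. The widest ranges were those of Gzma, 2.11 ± 1.06 (SE) in corpus over caput, and of Trac, 1.29 ± 0.66 in corpus over caput. Neither passed (adjusted p = 0.214 and 0.325 by edgeR). Without the P42 pool 3 members passed, which were Cd3d, Nkg7 and Gzma, each lowest in the cauda, where 40% of all genes were called. With the P42 cauda alone left out, 1 member (Gzma) passed.

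Within the gated lymphocytes both granzymes were called between segments in the main fit, in opposite directions. Both calls were lost under some of the alternatives given below. Gzmb was highest in the caput and Gzma in the corpus, as the plot of the levels in gated cells shows.

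**Figure D3:**
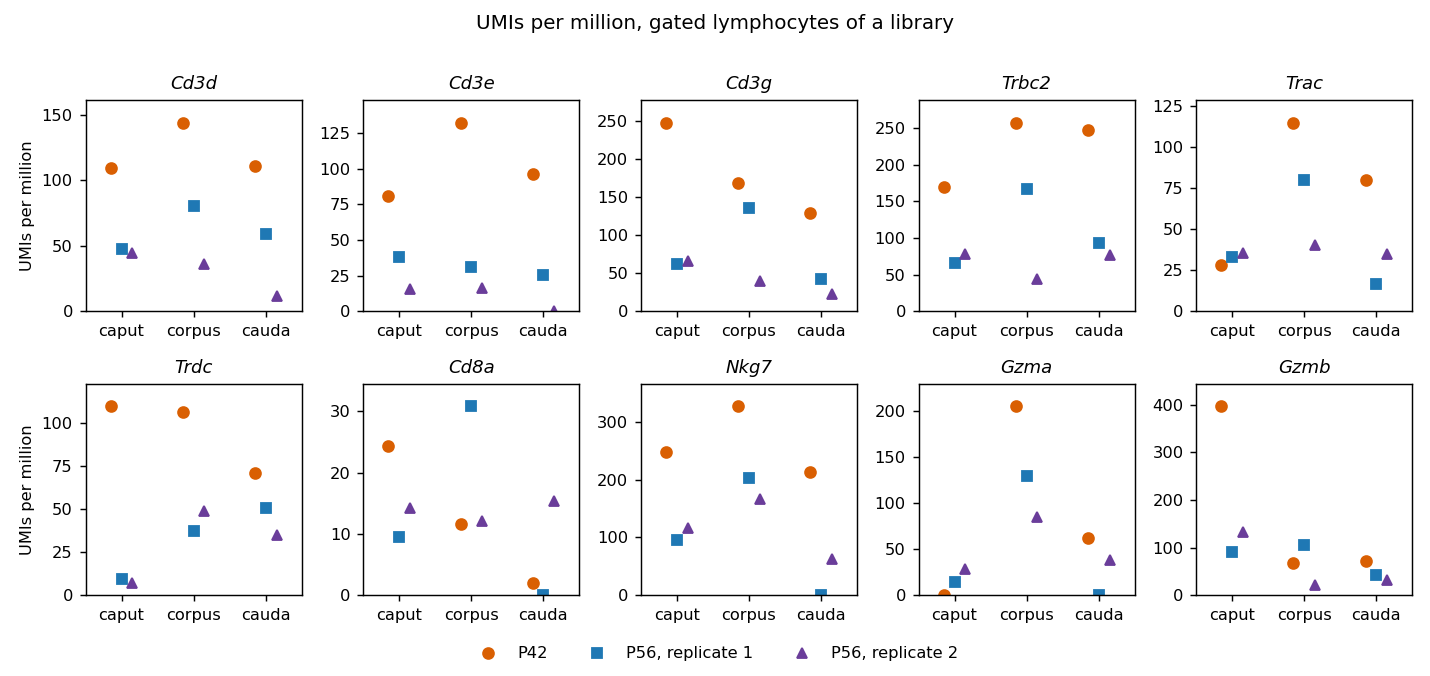
Level of each member in the gated lymphocytes of a library (CPM of their summed UMIs, linear axis from 0, a separate scale for each gene) by segment, with a circle for the P42 library, a square for P56 replicate 1 and a triangle for P56 replicate 2. Gzma was 84.9 CPM or more in every corpus library and 28.4 CPM or less in every caput library, while Gzmb reached 397 CPM in the P42 caput.

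In the caput, Gzma was at 0 of 246790 UMIs at P42, where 3 UMIs would be 12.2 CPM, and at 14.3 and 28.4 CPM in P56 replicates 1 and 2. In the corpus it was 205 CPM at P42 and 129 and 84.9 CPM at P56. In the cauda it was 61.6 CPM at P42 and 0 and 38.6 CPM at P56. The corpus libraries did not overlap with those of the caput or the cauda, and how many of all genes did the same was not counted. Few cells carried these UMIs. In the corpus they were 29 of 159 gated cells at P42 and 5 of 40 and 5 of 38 in P56 replicates 1 and 2. In the caput they were 1 of 27 and 7 of 71 in P56 replicates 1 and 2. In the cauda they were 21 of 193 at P42 and 2 of 28 in P56 replicate 2. The change from caput to corpus was 3.01 ± 0.76 on the log2 scale (edgeR, adjusted p = 0.0454), a fitted value that depends on the prior count because the P42 caput had no UMI.

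Gzmb was 397 CPM in the caput at P42 and 90.4 and 133 CPM at P56. It was 66.8 CPM in the corpus at P42 and 105 and 20.2 CPM at P56, and 71.9 CPM in the cauda at P42 and 42.1 and 30.9 CPM at P56. The caput and the cauda did not overlap, and 1 corpus library (P56 replicate 1) lay within the range of the caput. The share of all genes without such an overlap was not counted. Gzmb was higher in the caput than in the cauda by 1.89 ± 0.47 on the log2 scale (edgeR, adjusted p = 0.0255), and the corpus differed from the caput by -1.75.

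These were 2 called of 9 tested members, against 12.4% of 4237 genes. The other 7 tested members did not pass, and their ranges lay between 0.45 (Cd3d) and 1.31 (Nkg7) on the log2 scale. Cd8a, with 38 UMIs in the gate, was too rare to be tested. The median over the 9 members was 0.99, beside 0.67 over all genes. Both calls were lost with no replicate block (Gzma 3.02, adjusted p = 0.0868, and Gzmb 1.81, adjusted p = 0.115, by edgeR) and with a stricter gate of 3 genes. They were also lost with a looser gate, where 1 member, Trdc, was called. Without P56 replicate 1 only Gzmb passed, without P56 replicate 2 only Gzma, and without the P42 pool 4 of the 7 members then tested (Trdc, Nkg7, Gzma and Gzmb). The share of all genes called is not set beside these counts. With the P42 cauda alone left out, 3 members passed (Nkg7, Gzma and Gzmb), where 22.3% of all genes were called. Gzmb then differed by 1.80 ± 0.36 between caput and corpus (adjusted p = 0.000861 by edgeR).

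Markers of other cells in the gate also differed between these segments. The summed principal cell list was 53989, 126439 and 111567 CPM in the caput of P42 and of P56 replicates 1 and 2, and 20928, 45281 and 43271 CPM in the corpus, so every caput library lay above every corpus library. The ciliated cell list was likewise higher in the caput in every library (71.4 to 385 CPM, against 16.2 to 30.5 CPM). The lymphocyte list was higher in the corpus than in the caput of each pool (7182, 4259 and 3154 CPM against 4165, 1712 and 2016 CPM), as were the B cell and sperm lists. Against the cauda, the principal, ciliated and clear/narrow lists were higher in the caput in all 3 pools. The clear/narrow list was 1613, 885 and 2317 CPM in the caput and 399, 523 and 675 CPM in the cauda. The lymphocyte list was lower in the caput than in the cauda in 2 pools and higher in 1. The gated cells were deeper in the caput, with median depths of 6348, 7680 and 7183 UMIs against 3198, 2964 and 5421 UMIs in the corpus. Their part in the granzyme differences was not tested.

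The granzymes were also set against each other within the same cells, as the share of Gzma among the UMIs of both. This share was not among the planned tests and uses the same UMIs as the calls above, so it is not separate support. It was 0%, 13.6% and 17.6% in the caput at P42 and in P56 replicates 1 and 2. In the corpus it was 75.4%, 55.3% and 80.8%, and in the cauda 46.2%, 0% and 55.6%. The 0% in the cauda of P56 replicate 1 was 0 of 5 UMIs, whose exact binomial interval reached 52.2%. All corpus libraries thus lay above all caput libraries, and the cauda covered the range between. The means of caput, corpus and cauda were 10.4%, 70.5% and 33.9%, and an exact two-sided permutation test of the segments within pools gave p = 0.0556, where the smallest p it allows was 0.0278. In all cells the means were 18.7%, 66.5% and 32.9%, respectively. The intervals cover counting error only.

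Of the other genes of the cytotoxic list, 2 of 8 tested were called between segments in the gate by edgeR, beside 12.4% of all genes. Srgn, whose product packs granzymes into granules, was higher in the corpus than in the caput by 1.95 ± 0.42 on the log2 scale (edgeR, adjusted p = 0.0206). Of its 67426 UMIs 1883 lay in the gate, and it was also called between segments in all cells, where it was higher in the corpus than in the caput by 3.20 on the log2 scale. Gzmc, a further granzyme, was highest in the fit in the caput and lowest in the corpus (5.36, adjusted p = 0.0286 by edgeR). Its 17 and 7 caput UMIs came from 2 of 3 libraries, and the P42 cauda held 74 of its 100 UMIs in the gate. The fitted value thus rests on a corpus near 0. None of the other T cell receptor and CD3 chains (2 tested) or of the NK receptors and factors (8 tested) was called between segments.

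Between the ages, levels in all cells of the 3 CD3 chains, Trbc2 and Trdc were lower at P56 than at P42 in the corpus and cauda, and none of these genes was called in the caput. Trac passed in the cauda and not in the corpus (-1.45, adjusted p = 0.0723 by edgeR). In the text that follows, values are given for the P42 caput, corpus and cauda, and then as the lowest, median and highest of the 6 P56 libraries.

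Cd3e, the epsilon chain of CD3, was 1.40, 7.20 and 7.65 CPM at P42 and 0.417, 0.679 and 1.24 CPM at P56. Cd3g, the gamma chain, was 3.43, 9.98 and 10.5 CPM at P42 and 0.95, 1.25 and 2.55 CPM at P56. Trdc was 2.00, 7.15 and 7.11 CPM at P42 and 0.799, 0.998 and 1.23 CPM at P56. For these 3 genes the ages did not overlap, although the P42 caput came near to the P56 range for Cd3e. How many of all genes did not overlap was not counted.

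Cd3d, the delta chain of CD3, was 1.72, 8.96 and 10.1 CPM at P42 and 0.615, 1.28 and 2.29 CPM at P56. Trbc2 was 3.08, 15.9 and 18.9 CPM at P42 and 0.922, 1.62 and 3.64 CPM at P56. Trac was 0.736, 5.97 and 5.72 CPM at P42 and 0.559, 1.04 and 1.70 CPM at P56. Here the P42 caput lay within the range of P56, and the P42 corpus and cauda lay above it.

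Nkg7 was 3.61, 17 and 18.0 CPM at P42 and 0.307, 2.41 and 4.74 CPM at P56. Gzma was 0.561, 12.9 and 6.09 CPM at P42 and 0.0279, 1.01 and 2.06 CPM at P56. Gzmb was 5.75, 4.05 and 5.35 CPM at P42 and 0.457, 1.06 and 4.77 CPM at P56. The ages overlapped for all 3 genes, for Nkg7 and Gzma only through the P42 caput. For Gzmb the P42 libraries were level with one another, and the caput of P56 replicate 2 reached them. Cd8a stayed between 0 and 0.587 CPM in all libraries.

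Averaged over the segments, 7 of 10 members were lower at P56 and none was higher, where 19.7% of 21213 genes were called, 13.7% lower and 6% higher. The changes on the log2 scale were -1.61 ± 0.19 for Cd3d, -1.98 ± 0.22 for Cd3e, -1.64 ± 0.24 for Cd3g, -1.87 ± 0.25 for Trbc2 and -1.64 ± 0.20 for Trdc (edgeR, adjusted p between 0.000233 and 0.00105). Nkg7 changed by -1.70 ± 0.34 (adjusted p = 0.00456 by edgeR) and Gzma by -1.56 ± 0.52 (adjusted p = 0.0405 by edgeR). Trac had -0.89 ± 0.29 with an adjusted p of 0.0381 by edgeR and did not reach the fold limit. Gzmb, with -1.19 ± 0.45, had an adjusted p of 0.0609 by edgeR, and Cd8a had 0.02 ± 0.67. The median was -1.62 over the members and 0.03 over all genes. The fit had no term for the pool. The 3 P42 libraries share their mice, as do the 3 of each P56 pool, so the libraries are not independent and the p-values may be too small. Leaving out either P56 pool, with segment and age as additive terms, left 0 members called and 0 called genes at all, although 3 (without replicate 1) and 4 (without replicate 2) members had an unadjusted p under 0.05. With all libraries and additive terms, 5 members were called (Cd3d, Cd3e, Cd3g, Trbc2 and Trdc), and with additive terms and the P42 cauda left out 1 was, Trdc.

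**Figure D4:**
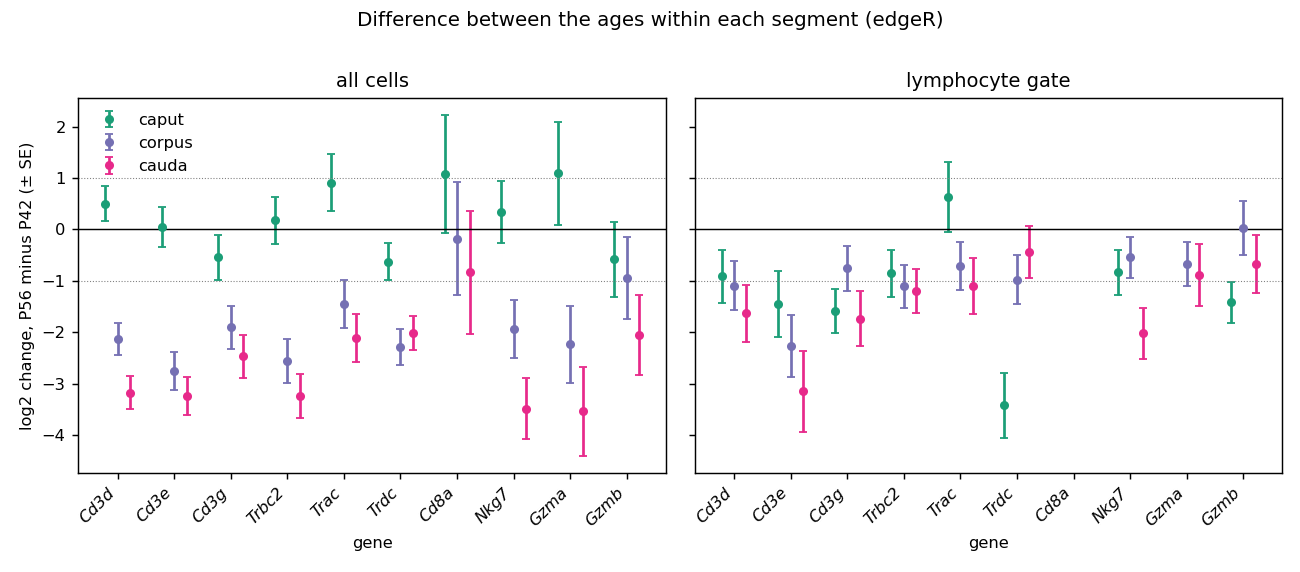
Log2 change from P42 to P56 of each member in each segment, in all cells (left) and in the gated lymphocytes (right), with bars of 1 SE from edgeR and dotted lines at the fold limit. Cd8a was not tested in the gate, and Gzma of the caput gate is not drawn because the P42 library had 0 UMIs. In all cells the corpus and cauda points lay below 0 for every member, and the caput points lay on either side of 0.

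The segments contributed unequally. In the caput 0 of 10 members were called (3.39% of all genes, 2.51% lower and 0.877% higher), with changes from -0.63 (Trdc) to 1.09 (Gzma), and 0 had an unadjusted p under 0.05 and DESeq2 called 0. In the corpus 5 were called lower (10.6% of all genes called, 7.85% lower and 2.8% higher), which were Cd3d (-2.14), Cd3e (-2.75), Cd3g (-1.90), Trbc2 (-2.56) and Trdc (-2.29). In the cauda 8 were called lower (32.4% of all genes, 19.4% lower and 13% higher), with changes from -2.01 (Trdc) to -3.54 (Gzma), and Gzmb (-2.05, adjusted p = 0.0653 by edgeR) and Cd8a (-0.84) did not pass. The age change itself differed between segments for Cd3d, Cd3e and Trbc2, which is 3 of 10 members beside 13.6% of all genes. For Cd3d it differed by -3.68 on the log2 scale in the cauda and by -2.64 in the corpus, both against the caput (edgeR, adjusted p = 0.00787 for both terms jointly). For Cd3e the corresponding differences were -3.29 and -2.80 (adjusted p = 0.0150 by edgeR), and for Trbc2 -3.42 and -2.73 (adjusted p = 0.0228 by edgeR).

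The share of gated lymphocytes was also taken by library. Gated cells were 0.826%, 3.84% and 4.32% of the cells of the P42 caput, corpus and cauda, 0.560%, 0.862% and 0.330% in P56 replicate 1 and 1.47%, 0.855% and 0.576% in P56 replicate 2. The P42 corpus and cauda thus held the largest shares. When each cell was thinned to 1000 UMIs, which left out 379 cells of the P42 cauda and 0 to 51 of each other library, Trbc2 was found in 1.67% of cells of the P42 corpus and 1.86% of the P42 cauda, and in 0.0825% to 0.479% of the others. Nkg7 was found in 1.62% and 2.03%, against 0.0619% to 0.501%. Across segments the share did not differ beyond its spread (means of 0.953%, 1.85% and 1.74% from caput to cauda, p = 0.861 by exact permutation within pools).

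Markers of other cell types in all cells moved with age as well. The macrophage list was 1343, 3914 and 9335 CPM in the P42 caput, corpus and cauda, 524, 730 and 330 CPM in P56 replicate 1 and 1014, 604 and 540 CPM in replicate 2. The myoid/fibroblast list was 4535, 8783 and 44823 CPM at P42 and 745 to 2397 CPM at P56. The endothelial list was 480, 155 and 111 CPM at P42, 59.2, 65.5 and 41.8 CPM in P56 replicate 1 and 107, 42.1 and 17.7 CPM in replicate 2. These lists and the ciliated and erythrocyte lists were higher at P42 in every segment, and the principal cell list was lower at P42 in every segment (68917, 29370 and 10585 CPM, against 53307 to 134272 CPM at P56). Their part in the age differences was not tested.

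Within the gated lymphocytes, levels per summed UMI of several receptor genes were also lower at P56. Cd3e was 81.0, 132 and 96.6 CPM in the P42 caput, corpus and cauda and 0, 20.7 and 38.1 CPM as the lowest, median and highest P56 library. Trdc was 109, 106 and 70.9 CPM at P42 and 7.09, 35.8 and 50.6 CPM at P56. Nkg7 was 247, 327 and 213 CPM at P42 and 0, 106 and 203 CPM at P56. In all 3 genes the ages did not overlap, and the same held for Cd3d and Trbc2, while the share over all genes was not counted. By contrast, Trac was 28.4, 115 and 80.1 CPM at P42 and 16.9, 35.1 and 80.1 CPM at P56, so that the ages overlapped. They also overlapped for Cd3g, with 128 CPM in the lowest P42 library and 136 CPM in the highest P56 library. The P56 values rest on few UMIs, from gates of 16 to 71 cells. Cd3e had 8, 5 and 3 UMIs in the caput, corpus and cauda of P56 replicate 1 and 9, 4 and 0 in replicate 2. At P42 it had 20, 91 and 94. The Nkg7 value of 0 was that of the 16 cells of the cauda of P56 replicate 1, where 3 UMIs would be 25.3 CPM.

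Of 9 members tested in the gate, 6 were called lower at P56, where 15.4% of 5298 genes were called, 10.3% lower and 5.1% higher. The changes were -1.21 ± 0.30 for Cd3d, -2.29 ± 0.40 for Cd3e, -1.36 ± 0.27 for Cd3g, -1.05 ± 0.25 for Trbc2, -1.61 ± 0.32 for Trdc and -1.13 ± 0.26 for Nkg7 (edgeR, adjusted p between 5.71e-05 and 0.00282). Trac (-0.39), Gzmb (-0.69) and Gzma (1.60) did not pass, and the sign of Gzma turned under other settings. The median over the members was -1.13 beside -0.07 over all genes. DESeq2 called 0 of them, with 6 at an unadjusted p under 0.05, and leaving out either P56 pool, in a fit with segment and age as additive terms, left 0 called with 7 (without replicate 1) and 5 (without replicate 2) at an unadjusted p under 0.05. With additive terms and all libraries 5 were called, and without the P42 cauda, also with additive terms, 3 were called (Cd3e, Cd3g and Trdc).

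Markers of other cell types moved with age in the gated cells too. The macrophage list in the gate was 1755, 5906 and 13745 CPM in the P42 caput, corpus and cauda, 1365, 746 and 126 CPM in P56 replicate 1 and 1270, 2281 and 760 CPM in replicate 2. The myoid/fibroblast list was 2342, 4977 and 30469 CPM at P42, 1765, 974 and 480 CPM in replicate 1 and 1734, 671 and 1396 CPM in replicate 2. The endothelial list was 450, 153 and 80.1 CPM at P42, 4.76, 92.5 and 16.9 CPM in replicate 1 and 47.9, 44.5 and 11.6 CPM in replicate 2. These lists and the B cell and ciliated lists were higher at P42 in every segment. The principal cell list made up 5.40%, 2.09% and 0.754% of their UMIs in the P42 caput, corpus and cauda, 12.6%, 4.53% and 5.52% in P56 replicate 1 and 11.2%, 4.33% and 6.79% in replicate 2, so it was lower at P42 in every segment. The summed lymphocyte list in the gate was 4165, 7182 and 6628 CPM at P42 and 1712 to 4259 CPM at P56. Median depths of gated cells were 6348, 3198 and 4045 UMIs in the P42 caput, corpus and cauda. They were 7680, 2964 and 6719.5 in P56 replicate 1 and 7183, 5421 and 8971 in replicate 2. With each cell thinned to 1000 UMIs, the gate held 3, 72 and 78 cells at P42. It then held 4, 15 and 1 in replicate 1 and 10, 11 and 2 in replicate 2. The part of these lists and of depth in the age differences within the gate was not tested.

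By segment, the gate gave 2 called members in the caput (2.21% of all genes, 0.963% lower and 1.25% higher), Cd3g (-1.59 ± 0.43, adjusted p = 0.0388 by edgeR) and Trdc (-3.42 ± 0.63, adjusted p = 0.00118 by edgeR). It gave 1 in the corpus (Cd3e, with 3.42% of all genes, 1.7% lower and 1.72% higher) and 5 in the cauda (24.2% of all genes, 14.3% lower and 9.91% higher), which were Cd3d, Cd3e, Cd3g, Trbc2 and Nkg7. These calls rested on few libraries: DESeq2 made 0 calls in each segment (2, 0 and 2 members at an unadjusted p under 0.05 in the caput, corpus and cauda). Leaving out the library of P56 replicate 1 or 2 in that segment alone left 1 library per age there, and the calls changed with it. The median change of the members was then -0.99 and -0.82 in the caput without replicate 1 and 2, respectively. It was -1.38 and -0.40 in the corpus and -1.27 and -1.26 in the cauda. In the gate the age change was not called as different between segments for any member (0 of 9 beside 5.27% of all genes by edgeR, with 2 members at an unadjusted p under 0.05, and 1, Gzma, with no filter on low counts). The gate held 27, 2 and 4 Trdc UMIs in the caput of P42 and of P56 replicates 1 and 2, where all cells held 57, 30 and 36. Trdc was 79.4% of the Trdc and Trac UMIs of the gate in the caput at P42 and 22.2% and 16.7% at P56 (73.1%, 58.8% and 40.9% in all cells), whereas it was 48.0%, 31.6% and 54.5% in the corpus and 46.9%, 75.0% and 50% in the cauda. The segments did not differ in this share beyond the spread (means of 39.4%, 44.7% and 57.3%, exact permutation test within pools, p = 0.611).

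The receptor genes were counted cell by cell within the gate. A UMI of Trac without Trdc was found in 110 cells, of Trdc without Trac in 73 and of both in 13. A further 184 cells had a UMI of a CD3 chain or Trbc2 only, and 225 had none of these 6 receptor genes. The median depth of these classes lay between 4328 and 5450 UMIs, and a receptor gene can be missed at this depth, so the last class is not a class of cells without a receptor. Of 123 cells with a Trac UMI, 81 also had a UMI of Trbc2 (65.9%), against 38.3% of all gated cells, and 13 had one of Trdc (10.6%), against 14.2% of all gated cells, so the share with both was near that of the gate as a whole.

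A UMI of a receptor gene was found in a smaller share of the Gzma cells than of the Gzmb cells. Of 70 gated cells with a Gzma UMI, 25 (35.7%, exact interval 24.6% to 48.1%) had a UMI of any receptor gene, and of 114 with a Gzmb UMI, 92 had one (80.7%, 72.3% to 87.5%). The Gzma cells were shallower, with a median of 3918.5 UMIs against 5290 in the Gzmb cells, and the part of depth in this difference was not tested. The interval covers counting error only, since cells of 1 library are not replicates. For Trdc alone the shares were alike (14.3% of Gzma cells and 14.0% of Gzmb cells). No Gzma UMI was found in the 123 Trac cells. Taken as a limit of 3 cells, a count of 0 allows a share of cells with a UMI of up to 2.44%, which is not an exact interval and sets no limit on cells that express the gene. By contrast, 31 of them (25.2%) had a Gzmb UMI. By library the share was lower for Gzma in each of the 7 libraries where both genes were found in gated cells. In the P42 corpus 12 of 29 Gzma cells and 15 of 20 Gzmb cells had a receptor UMI, and in the P42 cauda 9 of 21 and 23 of 30. In the caput of P56 replicate 2 the numbers were 1 of 7 and 21 of 28.

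**Figure D5:**
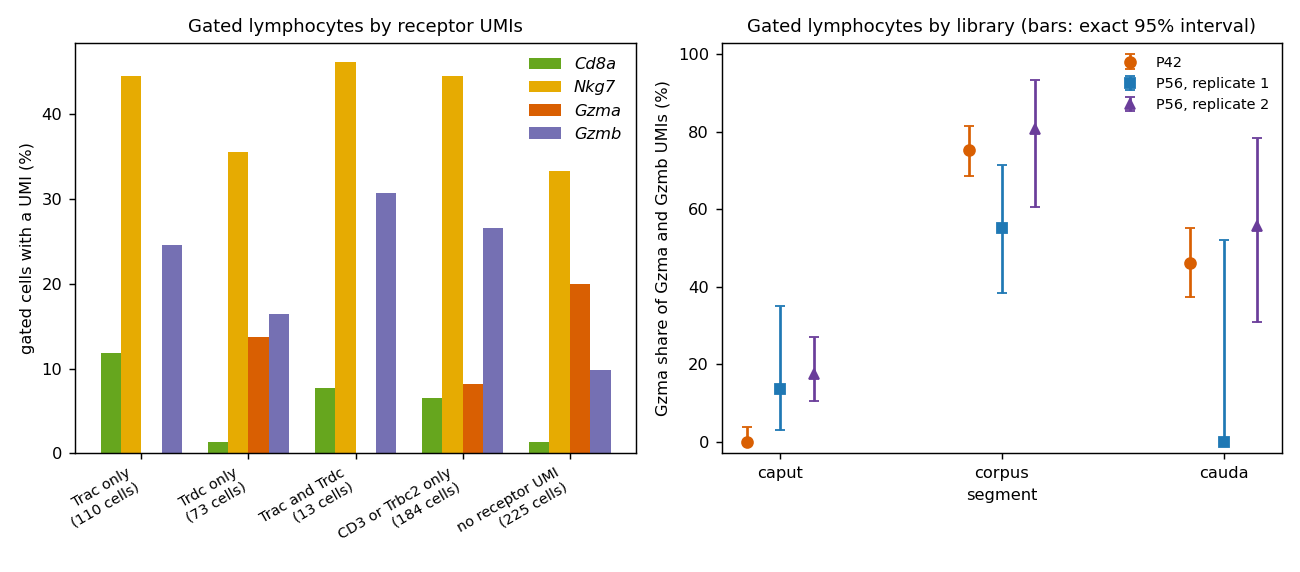
Left, percent of gated lymphocytes with a UMI of Cd8a, Nkg7, Gzma or Gzmb in each receptor class, and right, the Gzma share of the UMIs of both granzymes in each library with its exact 95% binomial interval. Gzma was found in 20.0% of cells without a receptor UMI and in 0% of those with Trac only, and the corpus libraries lay above the caput libraries.

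In CPM of the summed cells, Gzma was 135 in cells without a receptor UMI, 74.0 in cells with Trdc only and 0 in cells with Trac only. Gzmb was 25.4, 143 and 107 CPM in the same classes and 162 CPM in cells with a CD3 chain or Trbc2 only. Nkg7 was spread more evenly, at 165 to 250 CPM in every class. Of its 238 cells 58 also carried Gzma and 78 Gzmb. Of 30 Cd8a cells, 27 had a receptor UMI (90%, 73.5% to 97.9%). Trbc2 was found in 19, Trac in 14 (46.7%, against 20.3% of all gated cells) and Trdc in 2 (6.67%, against 14.2%). None had Gzma, but 0 of 30 allows a share of up to 10% by the limit of 3 cells, near the 11.6% of all gated cells. The Cd8a cells were deeper, with a median of 6366 UMIs against 4898 in the gate.

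Of the NK receptor genes, only Klra8 and Ncr1 were counted in the cells with granzyme UMIs. Klra8, an activating Ly49 receptor, was found in 24 of 70 Gzma cells and in 10 of 114 Gzmb cells, and Ncr1, the natural cytotoxicity receptor NKp46, in 19 and 16. Of all gated cells, 5.45% carried Klra8 and 7.60% Ncr1. Klra8 was also the gene most like Gzma in its level in these data, as given below, so its count is not separate support. In turn, of the 116 Klra8 UMIs in the gate, 62 lay in cells without a receptor UMI and 2 in cells with Trac only. The rest lay in the other receptor classes.

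Cells with Trdc carried genes known from gamma delta T cells. Of the 77 UMIs of the delta variable segment Trdv4 in the gate, 49 lay in cells with Trdc only and 13 in cells with Trdc and Trac, and 0 in cells with Trac only. Trgc1, a gamma constant segment, was found in 50.7% of cells with Trdc only and in 7.27% of those with Trac only. Il17a, a cytokine of a subset of gamma delta T cells, had 143 UMIs in the gate, of which 81 were in cells with Trdc only, 37 in the 13 cells with both chains and 4 in cells with Trac only. Cxcr6, a chemokine receptor of resident lymphocytes, was found in 53.4% of cells with Trdc only, in 23.6% of those with Trac only and in 6.22% of those without a receptor UMI.

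Variable segments were sparse, with 404 UMIs over 19 named segments in all cells and 155 in the gate, and Trdv4 alone had 184. Of the coreceptor genes, Cd4 had 18 of its 131 UMIs inside the gate and Cd8b1 had 57 of 125.

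Over 87 sums of a library and a cell type, the gene most like Cd3e, Cd3g, Trbc2 and Trac in its level was Trgc1 (Pearson r of log2(CPM + 1) of 0.878, 0.905, 0.862 and 0.917). For Trdc it was Trbc1 (0.898), for Cd8a its partner chain Cd8b1 (0.873), for Nkg7 the NK receptor gene Klre1 (0.893), for Gzma Klra8 (0.816), for Gzmb the protease Ctsw (0.867) and for Cd3d Klra7 (0.849). These were chosen from 17344 candidate genes, the sums share libraries and depth, and Ctsw is 1 of the genes that drew the gate.

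The other genes of the pathway were compared between the ages in all cells by the same fit. Of the other receptor and CD3 chains, 4 of 5 were lower at P56 and none was higher (Trbc1 -1.45, Cd247 -1.33, Trgc1 -1.50 and Trgc4 -1.60 on the log2 scale). Of 14 genes of proximal receptor signalling 8 were lower and 1 was higher. Zap70, the kinase recruited to the receptor, changed by -2.25 ± 0.27 (adjusted p = 0.000363 by edgeR), Lat, the adaptor it phosphorylates, by -1.66 ± 0.19, and Skap1 rose by 1.10 ± 0.12. Most UMIs of these 3 genes lay outside the gate, with 61 of 988 inside for Zap70, 139 of 1375 for Lat and 210 of 10318 for Skap1. Of 12 other cytotoxic genes tested 4 were lower, among them Prf1, the pore-forming perforin (-2.05 ± 0.50), and Ctsw (-1.97 ± 0.29). Of 15 NK receptors and factors 10 were lower, of 6 residency genes 5 and of 7 recirculation genes 3. Of 10 interleukin 17 and gamma delta genes 3 were lower (Blk, Maf and Cd163l1), of 3 regulatory T cell genes 1 (Il2ra) and of 2 coreceptor genes 1 (Cd4). None of the genes of these 7 lists was higher. Some of the genes called lower had few UMIs inside the gate, with 221 of 12944 for Klrb1c, 1260 of 14477 for Rgs1 and 842 of 21530 for Maf. Others had most of them inside, such as Il2rb with 295 of 399. Sums over all cells do not separate lymphocytes from the other cells that carry these genes. The background of 13.7% lower calls applies to each of these counts, and the lists were written with earlier results of these data known.

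Within the gate fewer of these genes could be tested. Of the other chains 2 of 2 were lower at P56 (Trbc1 -1.02 and Trgc1 -1.08), of the signalling genes 2 of 9 (Lcp2 and Ptprc), of the cytotoxic genes 2 of 9 (Ctsw and Srgn) and of the NK list 4 of 9 (Klrd1, Klra7, Klra9 and Il2rb). None of these was higher by edgeR, and 10.3% of all genes were called lower. Ctsw, Klrd1 and Il2rb are among the 14 genes that drew the gate, so their levels in it depend on that choice of cells.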

How the data were processed

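UMIs were measured by single-cell RNA-seq on a microfluidic chip with barcoded beads. The authors trimmed reads with fastp, handled barcodes with umi_tools, mapped reads with STAR and counted UMIs over genes, and the deposited values are raw UMI counts. The submitters' processing notes name STAR 2.7.3a, UMI-tools and GRCm38.p6. All values of the table were whole numbers, and 0 of its columns were left unused. The members and lists were chosen with earlier results of these data known, and the 14 genes of the gate were picked from a longer list after the others were seen to be found broadly.

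Of 44869 barcodes, those with 300 to 4000 genes, at most 20000 UMIs and under 50% mitochondrial UMIs were kept (42087), and erythrocyte-like cells were left out, which gave 41050. Median UMIs per cell lay between 3063.5 and 7641. Cells were assigned to types by marker genes. UMI counts were summed per library and, for types, in libraries with at least 10 cells, and were tested by edgeR 4.0.16 (filterByExpr, TMM, quasi-likelihood, R 4.3.3) over all genes with Benjamini-Hochberg adjustment. The limits were an adjusted p of 0.05 and a log2 fold change of 1. Errors of changes are the fold divided by the root of F. Segments had the pool as a block, because caput, corpus and cauda of 1 pool share their mice. Deviations from segment means correlated in 9 of 9 pairs of libraries of 1 pool (0.32 to 0.79, median 0.57), and in 6 of 18 pairs of different pools and segments the correlation was over 0.1. Those 6 join the P56 pools, the other 12 join P42 with P56 and were negative, so this correlation cannot be told apart from age. For the ages, each combination of segment and age had its own mean. The pools are separate groups of mice, and p-values measure the spread between 2 P56 pools. Counts were simulated for the genes that the segment fit kept, with its dispersions (19505 genes in all cells and 4237 in the gate), and 200 genes were given a log2 change of 2. The segment fit recovered 58% in all cells and 75.5% in the gate, and the age fit, run on these same genes and not on the larger sets tested with the real counts, 60% and 85.5%. None was in the wrong direction, and 8 or 9 unchanged genes were called each time. The simulated libraries were independent and had no effect of pool, unlike the real ones. These numbers thus do not show how the age fit, which has no block, behaves with libraries that share mice.

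Named genes were the members, companions in 9 lists that passed a test or were among the 3 highest of their list, and the genes most like each member. Shares were tested by exact permutation within pools. Alternatives were DESeq2 1.42.0, no filter on low counts, no block, other gates and pools left out in turn. Within a segment, the age fits left out 1 P56 library of that segment instead. Chosen after seeing the data were the P42 cauda left out, additive terms, no upper limits on cells, and the interaction of age and segment. The permutation test of the Gzma share was also added to the planned tests. Tables and figures were made with pandas 2.3.3, numpy 2.4.6, scipy 1.17.1 and matplotlib 3.10.9 under Python 3.11.15. Promoters were taken from RefSeq (GRCm38.p6), with entries for 7 of 10 members. Gene positions were taken from GENCODE. Some items of the gate and marker lists are not reported here.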

Additional observations from a re-analysis of the deposited data

Results flagged for a closer look

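In the gated lymphocytes, Trac in the corpus of P56 replicate 1 lay apart from the other P56 libraries at 80.1 CPM, with a gap to the nearest of them that was 0.627 of the range of the 6 libraries. It was the only 1 of 21 sets of 6 libraries to do so, and chance gives about 1 in 20. The age change in all cells differed between segments for Cd3d (-3.68 in the cauda and -2.64 in the corpus, both against the caput), Cd3e (-3.29 and -2.80) and Trbc2 (-3.42 and -2.73), tested by the interaction of age and segment. Barcodes left out, by the cell filter or as the 1037 erythrocyte-like cells, were 3819 in all and held 604 member UMIs (12.8 CPM, against 24.9 CPM in the used cells), with Nkg7 (109) and Trbc2 (105) the most.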

How the results depend on the processing

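Counts of members called are given under each alternative that moved them by over 1.5 times. For most alternatives the share of all genes called is not given, so such a count alone is no result about the members. Between segments in all cells, 1 was called with the P42 cauda left out and 0 to 3 with a pool left out. In the gate, 0 were called with no replicate block, 0 with the stricter gate and 1 to 4 with a pool left out. With the looser gate 1 was called, which was Trdc and not a granzyme. The block changed no other call. Between the ages in all cells, with additive terms, 1 was called with the P42 cauda left out and 0 to 0 with a P56 pool left out. The corpus had 8 calls with no filter on low counts. The interaction had 6 with no filter. Within a segment, 1 P56 library of that segment was left out and not a pool, which left 1 library per age there. The median change of the members was then 0.57 and -0.041 in the caput without replicate 1 and 2, respectively. It was -2.41 and -1.86 in the corpus and -2.48 and -3.15 in the cauda. In the gate DESeq2 called 0 averaged and 0 in each segment. Averaged, 2 were called with the looser gate. With additive terms, 3 were called with the P42 cauda left out, 1 with the stricter gate, and 0 to 0 with a P56 pool left out. The caput had 1 with no filter, and the interaction 1 with no filter. With 1 P56 library of a segment left out, the calls of each segment changed.

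Shares are given as the difference between the segments that were highest and lowest in the report, and each p is of the exact permutation test over the 3 segments. The share of gated cells, corpus minus caput, was -0.158 points without the P42 pool (exact permutation p = 0.5) and -0.158 to 1.66 with a pool left out. The Trdc share, cauda minus caput, was -43.3 points with the stricter gate (exact permutation p = 0.139), -0.61 in all cells (exact permutation p = 0.389) and 0.43 to 43.1 with a pool left out. The Gzma share, corpus minus caput, was 52.4 to 69.3 points with a pool left out.

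Direction reversed for these members on the log2 scale, and no reversed value passed the threshold. Between segments, Cd3e lay between -0.49 (without the P42 pool) and 0.90 and Trbc2 between -0.39 (without the P42 pool) and 1.19 with a pool left out, and in the gate Trdc was -0.043 with the stricter and Cd3g -0.38 with the looser gate. Between the ages in all cells, Cd8a was 0.27 and -0.42 averaged, with additive terms and without P56 replicate 1 and 2. With only the library of the segment left out, Cd8a was -0.44 and 0.026 in the corpus and 0.084 and -6.20 in the cauda. For the last value Cd8a was at 0 in the P56 library that remained. In the caput Cd3e was -0.26 and 0.29, Trbc2 0.49 and -0.30 and Nkg7 0.65 and -0.11 without the caput library of replicate 1 and 2. Cd3g was 0.076 there with no upper limits on cells. In the gate, with additive terms, Gzma was 0.040 without P56 replicate 1, -0.58 without P56 replicate 2 and -0.18 without the P42 cauda. With the same terms it was -0.30 with all libraries and -0.58 with the stricter gate. Without these terms it was -0.037 with the looser gate. Gzmb in the corpus of the gate was -0.15 with no filter, -1.38 without the corpus library of replicate 1 and 0.90 without that of replicate 2. The causes were not tested. Of the other values of single members, 476 kept their direction and side of the threshold, 22 crossed it to a call and 81 lost a call. Cd8a (38 UMIs in the gate) is limited by depth.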

Other observations

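In the gated lymphocytes the interleukin 17 gene Il17a differed between segments. It was 125 CPM in the P42 corpus and 6.16 and 109 CPM in the corpus of P56 replicates 1 and 2, 19.5, 0 and 34.7 CPM in the cauda and 4.05, 0 and 0 CPM in the caput. The caput libraries lay below the corpus libraries, and the corpus of P56 replicate 1, with 1 UMI, lay below 2 of the cauda libraries. The fitted change from caput to corpus was 6.24 ± 0.81 on the log2 scale (edgeR, adjusted p = 0.000987), which rests on 1 UMI in the caput. Icos, a costimulatory receptor of activated T cells, was 0 to 1.77 CPM in the caput and 8.09 CPM or more in every library of the corpus and cauda (edgeR, adjusted p = 0.0278). It had 86 UMIs in the gate, and 3 UMIs would be 3.08 to 25.3 CPM in a library, so its lowest values lie near the floor. Icos was the only call among 8 tested signalling genes, beside 12.4% of all genes. How many of all genes did not overlap in this way was not counted. Klf2, a factor of recirculating lymphocytes, was 23.8 to 207 CPM in the caput, 162 to 363 CPM in the corpus and 160 to 644 CPM in the cauda. The segments thus overlapped, and it differed by 1.87 ± 0.40 on the log2 scale between caput and cauda (edgeR, adjusted p = 0.0242). It was 325 CPM in the pooled gate and 517 CPM in macrophage/monocyte-like cells, so it is not particular to lymphocytes. Il17a and Klf2 were each the only call among 3 tested genes of their lists, beside 12.4% of all genes.

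Between the ages in the gate, Cd163l1, a scavenger receptor found on gamma delta T cells, was 16.2, 63.9 and 31.8 CPM in the P42 caput, corpus and cauda and 0 to 11.6 CPM at P56 (-2.97 ± 0.81 on the log2 scale, adjusted p = 0.00703 by edgeR). Cd69, a marker of activated and resident lymphocytes, changed by -1.56 ± 0.35 and Rgs1 by -1.45 ± 0.20 in the same comparison (edgeR, adjusted p = 0.00138 and 1.54e-06). They were 2 of 3 residency genes tested, and 2 of 4 recirculation genes, Klf2 and Lef1, were called lower as well. Over all genes 10.3% were called lower. Rgs1 was 363 CPM in the pooled gate and 478 CPM in macrophage/monocyte-like cells, so it is not particular to lymphocytes. Principal, macrophage, B cell, endothelial, ciliated and myoid/fibroblast markers in the gate also moved with age in every segment, and their part was not tested.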
